A study of Mus musculus with 22 samples.

Results

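Long noncoding RNAs that stay in the nucleus, come from imprinted loci or carry small nucleolar RNAs (snoRNAs) in their introns were followed in single mouse astrocytes whose calcium response to ethanol (EtOH) had been recorded. The group was chosen by name and holds 9 genes, Malat1, Neat1, Meg3, Rian, H19, Gas5, Snhg1, Snhg11 and Miat, of the 23453 gene symbols in the count table. All 9 symbols were found in the table and in the gene annotation, and 8 of them had a read in at least 5 cells, the minimum for a ratio between response types. The exception was H19.

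The cells were 22 astrocytes from primary cultures of the cerebral cortex of C57BL/6 pups at postnatal day 0 to 1, of which 6 were called S-type, 6 T-type, 5 M-type and 5 nonresponsive (NR) from the shape of the calcium signal that EtOH evoked. Before replating, every culture had been shaken for 6 h and kept in cytosine arabinoside, a blocker of DNA synthesis, for 12 h, and serum was withdrawn 24 h before imaging. All cells, NR cells included, had been loaded with a calcium dye and exposed to EtOH before a glass pipette collected them, so no cell was free of EtOH, and per the labels ATP was applied at the end of each imaging run. M-type is the class of mixed signals, and cultured cells from newborn cortex are the only source of all 4 groups. Which animal or culture gave a cell is not in the labels, and a response type therefore counts as 1 sample, with values compared and nothing tested between types. The study collected cells at more than 1 time after EtOH, and the labels do not give the time of a cell, so a type may mix collection times. Cells are written here as type and number, for example T-type cell 6.

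Malat1 is a nuclear RNA of splicing speckles, and Neat1 from the next gene along the chromosome is the RNA scaffold of paraspeckles, nuclear bodies that hold RNA-binding proteins and edited transcripts. Meg3 and Rian are expressed from the maternal copy of the Dlk1-Dio3 imprinted locus, and H19 from the maternal copy of the Igf2 locus. Gas5 and Snhg1 are spliced host genes whose introns give rise to snoRNAs, while their exons form short-lived RNAs that are degraded when translated, and transcripts of this kind often start with a terminal oligopyrimidine tract (TOP) like those of ribosomal proteins. Miat is a nuclear RNA described in neurons and heart, and Snhg11 is a host gene best known from brain.

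A cell had between 2937786 and 22131076 reads over all genes, with a median of 16965581, and a read in 6319 to 13070 genes. Normalized counts are counts over median-of-ratios size factors, which were 0.183 to 1.56 in T-type cells and 0.923 to 2.31 elsewhere. T-type cell 2 with 6319 genes and a size factor of 0.276 and T-type cell 3 with 2937786 reads stood apart from the rest. Type levels are mean normalized counts over cells. A level of 0 allows up to 3 reads over the type, which corresponds to a normalized count of 0.319 in M-type, 0.397 in NR, 0.402 in S-type and 0.622 in T-type. Intervals are 95% intervals for the split of raw reads between 2 types, moved onto the ratio of type levels. They cover counting error of reads only and not the spread between cells. The libraries had no molecular identifiers and a molecule can give several reads, so counting error of molecules is not covered either. Of 15 astrocyte marker genes, 15 had a read in at least 1 S-type cell, 14 in at least 1 NR cell and 13 each in T-type and M-type. Their summed level was 1094 to 9800 CPM (reads scaled to a common library total) per cell. Of 14 with a ratio of means to NR, 7 were past 2-fold lower in S-type, 7 in M-type and 6 in T-type. Higher were 0, 0 and 2. The shares of all genes were 22.5%, 28.1% and 32.8% lower and 25.1%, 19.8% and 28.4% higher. Markers of other cell types were mixed. Olig1 of the oligodendrocyte lineage and Acta2 and Tagln of mural cells were read in all 22 cells, Stmn2 of neurons in 20 and Kdr of endothelium in 13, while Sox10 of oligodendrocytes, Slc17a7 of neurons, Cldn5, Cdh5 and Tie1 of endothelium and Rgs5 and Vtn of mural cells had no read.

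Per kilobase of annotated exon, Malat1 was the most abundant of the group with a median over the 22 cells of 4286 normalized counts per kilobase. It was followed by Gas5 at 1522, Snhg1 at 366, Neat1 at 210 and Meg3 at 56.3. Miat at 0.523, Rian at 0.0816, Snhg11 at 0.0791 and H19 at 0 formed a far lower set that most cells barely contained. Dividing by the median length of the annotated transcripts instead, an alternative chosen after seeing the data, put Neat1 before Snhg1 (2160 and 1801) and kept the rank of the other members. Malat1 and Gas5 were thus present in every cell at high levels, Gas5 within a range of 11.5-fold and Malat1 within one of 111-fold, while Neat1 and Meg3 were abundant in some cells and almost missing from others. The top of the Malat1 range was T-type cell 2, with its size factor of 0.276. In CPM Malat1 ran from 297 to 10352 and Gas5 from 77.9 to 879. The plot of each RNA by type shows the ranges of normalized counts.

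**Figure D1:**
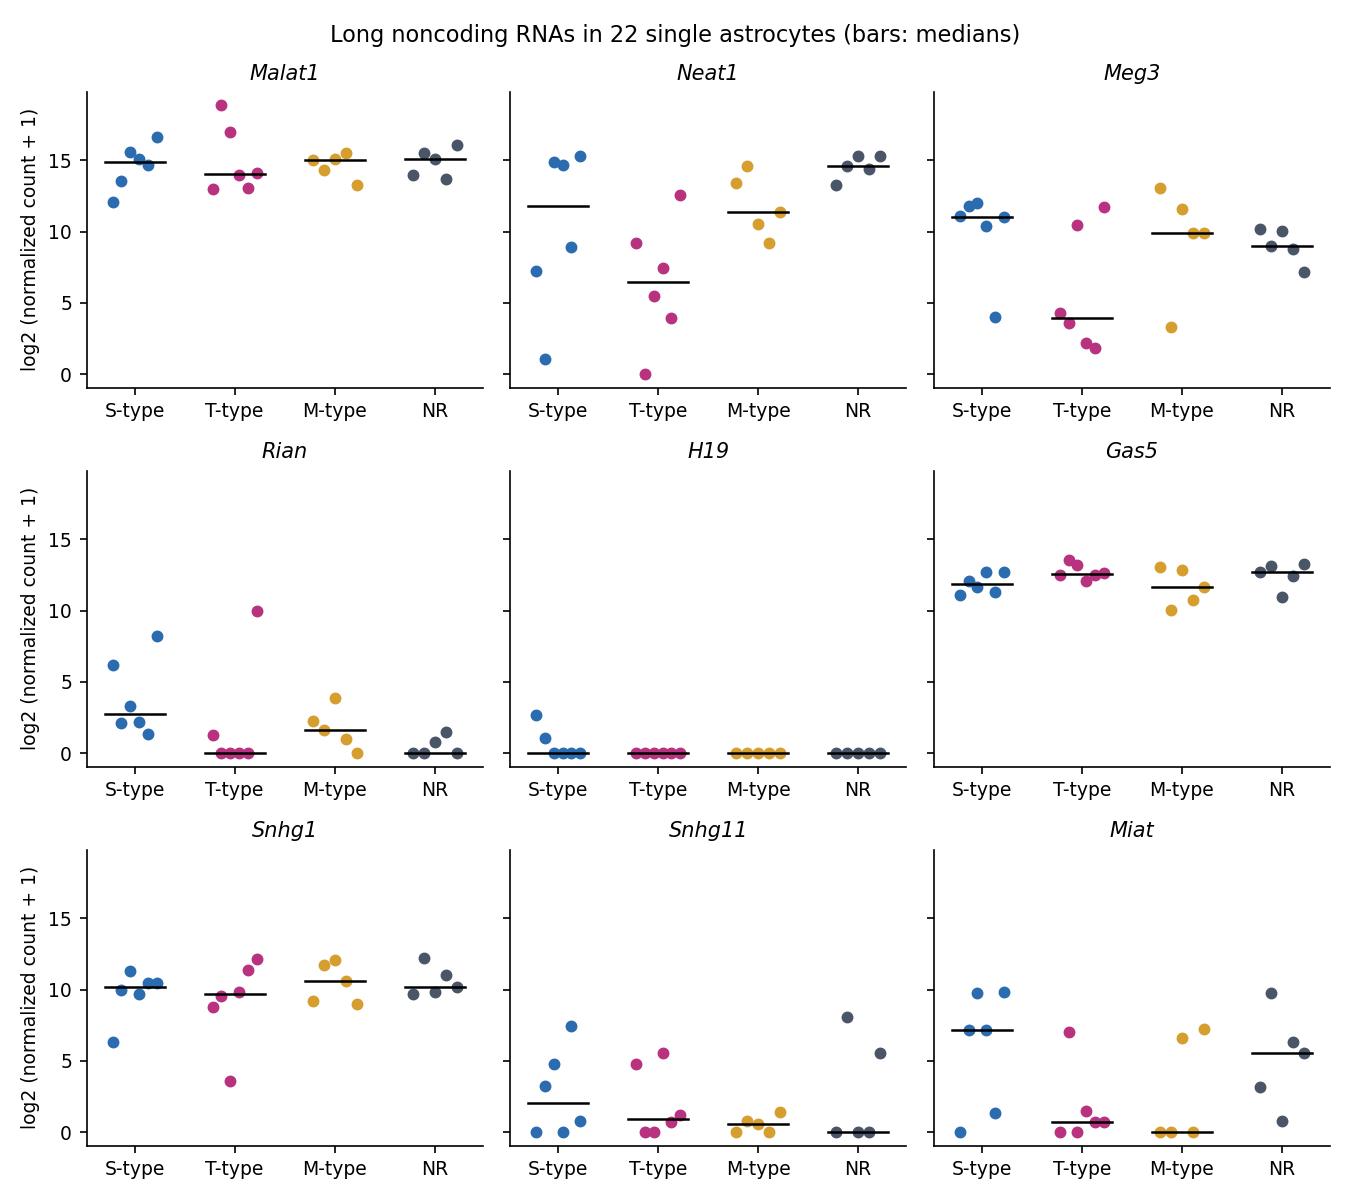
Each panel plots 1 RNA as log2 of the normalized count plus 1, with a point for every cell, S-type (n = 6), T-type (n = 6), M-type (n = 5) and NR (n = 5), and a bar at the median of the type. The Neat1 points of T-type lie between 0 and 6033 normalized counts, all under the lowest NR cell at 9797. The Gas5 points of the types overlap and lie between 1038, in M-type, and 11957, in T-type.

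Neat1 lies on the minus strand at chr19:5824708-5845478 (GRCm38), and its gene is 1 transcribed unit of 20.77 kilobases with a long and a short isoform that gene counts cannot separate. NR had the highest level with 27327 normalized counts, then S-type with 16255, M-type with 8096 and T-type with 1140. The NR cells had 9797, 24702, 41310, 21256 and 39572. The M-type cells had 10711, 25034, 1453, 599 and 2682. S-type cells ran from 1.08 through a median of 13299 to 40472, and T-type cells from 0 through a median of 108 to 6033. Every NR cell was high, and every T-type cell was lower than every NR cell. S-type split into 3 cells of 26120 to 40472 and 3 cells of 1.08 to 478 with none between, and M-type spanned the gap. Neighbours in this order, NR and S-type, S-type and M-type, and M-type and T-type, overlapped in their cells.

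The T-type level of Neat1 was 24.0 times lower than the NR level (log2 ratio -4.58, interval -4.61 to -4.55). T-type cell 6 held 88.2% of the T-type level, and without it the log2 ratio was -7.40. T-type cell 2 had no Neat1 read among 12564138 reads, and without this cell the log2 ratio was -4.32. Against S-type the T-type log2 ratio was -3.83 (-3.86 to -3.80), with a range of -6.65 to -3.32 when single cells were left out, and 3 S-type cells lay inside the T-type range. M-type was also lower than NR, with a log2 ratio of -1.76 (-1.77 to -1.74), which became -2.82 without M-type cell 2. The S-type log2 ratio to NR was -0.75 (-0.76 to -0.74), less than 2-fold by means. It was past 2-fold at -4.22 with log means, at -1.26 without S-type cell 6 and at -1.02 without S-type cell 3. Without T-type cell 3 the T-type log2 ratios were -4.33 to NR and -3.58 to S-type.

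Whether the separation of T-type from NR depended on scaling was looked at with 3 further scalings and with a ratio inside each cell, all chosen after seeing the data. In CPM the T-type cells reached at most 528 and the NR cells at least 810, with TMM factors the values were 536 and 765, and with all cells thinned to 2937786 reads they were 1180 and 2182. Neat1 reads per 100 Malat1 reads need no scaling between cells, because both transcripts come from the same library. This ratio was 52.3 to 160 in NR (median 59.8), 0 to 33.6 in T-type (median 0.630), 0.00885 to 76.4 in S-type (median 21.2) and 1.30 to 123 in M-type (median 27.3). The T-type cells stayed below every NR cell on all of these scales, and the panel of Neat1 reads per 100 Malat1 reads shows the gap. Non-overlap of this kind was found in 1.01% of the 12508 genes compared between T-type and NR, and Neat1 was the 1 member among them.

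**Figure D2:**
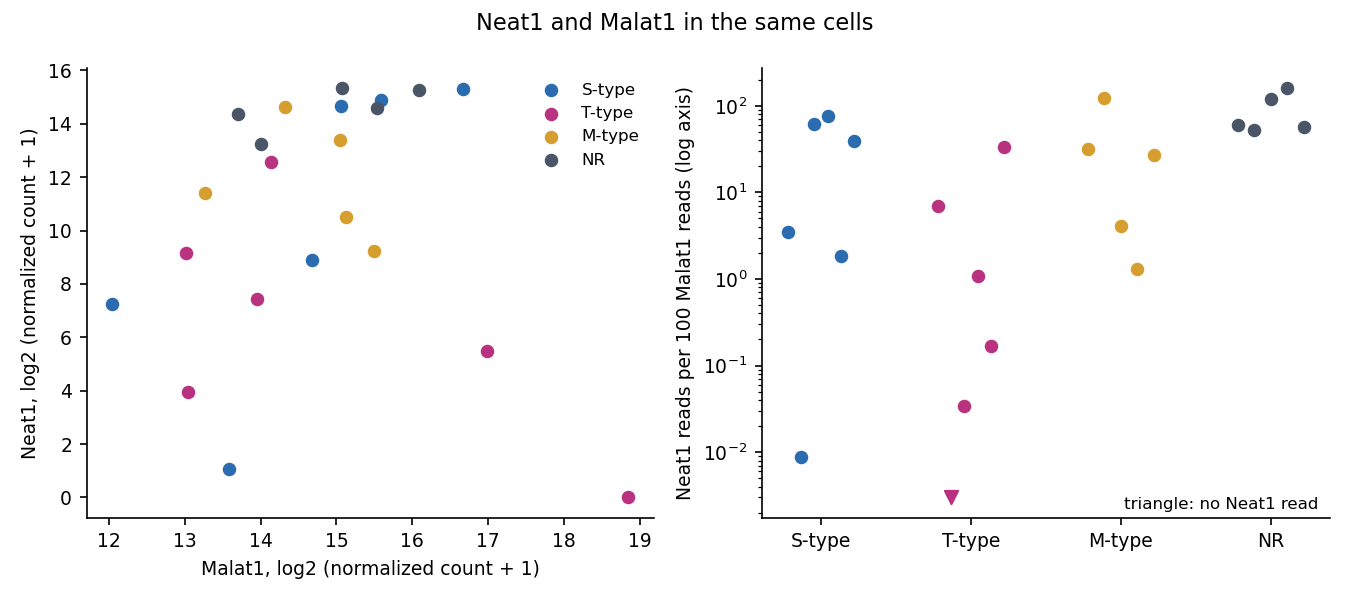
Left, Neat1 against Malat1 in each of the 22 cells, both as log2 of the normalized count plus 1, and right, Neat1 reads per 100 Malat1 reads on a log axis by type, where the triangle marks T-type cell 2 without a Neat1 read. The 5 NR cells sit between 52.3 and 160 and the 6 T-type cells at or under 33.6.

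Several cell features were set beside Neat1. T-type cells had a read in 6319 to 10614 genes and NR cells in 9696 to 13070, and Neat1 CPM had a Spearman rho of 0.57 with the number of genes detected over the 22 cells. Of 20 S-phase genes, 14 were past 2-fold higher in T-type than in NR and 0 lower, beside 28.4% and 32.8% of all genes. Their summed level was 80.5 to 6901 CPM in T-type cells (median 711) and 317 to 500 CPM in NR cells (median 385). T-type cell 5 had the 6901 CPM, and T-type cells 1, 2, 3, 4 and 6 had 1496, 80.5, 407, 736 and 686 CPM. A ratio of means can lean on 1 high cell, and the count without cell 5 is not given here. Of 20 G2/M genes, 9 were higher and 6 lower, with 19.7 to 2218 CPM in T-type and 0.113 to 448 CPM in NR. The summed microglia list was 4.22 to 129 CPM in T-type and 4.92 to 370 CPM in NR, with 0 of 11 genes higher and 7 lower. Over the 22 cells the microglia list had a rho of 0.08 with Neat1. Within S-type, the 3 cells with little Neat1 (cells 1, 2 and 5) had 1768 to 7396 CPM of S-phase genes, and the 3 cells with much Neat1 had 244 to 488 CPM. The same split also parted the summed G2/M and neuron genes, higher with little Neat1, and the oligodendrocyte lineage genes, lower with little Neat1. The astrocyte, microglia, endothelial, mural and fibroblast, and ribosomal protein sums overlapped. The split was therefore not specific to S-phase genes. T-type and M-type did not show the S-phase order. T-type cell 2, with no Neat1 read, had 80.5 CPM of S-phase genes. T-type cell 3, with 43.6 normalized counts of Neat1, had 407 CPM. M-type cell 2 had the most Neat1 of its type (25034) and also the most S-phase and G2/M transcripts, 1927 and 805 CPM, while M-type cell 1 had the fewest S-phase transcripts, and the other 3 cells had 298 to 609 CPM. The part of these features in the Neat1 levels was not tested.

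Malat1 lies 22.0 kilobases from Neat1 on the same strand, at chr19:5795690-5802672. Mean levels were 108566 normalized counts in T-type, 38298 in S-type, 36194 in NR and 29119 in M-type. NR cells had 16375, 47233, 34407, 13270 and 69682, and M-type cells had 33736, 20424, 35621, 45987 and 9827. S-type cells ran from 4234 through a median of 30162 to 103974, and T-type cells from 8316 through a median of 16913 to 471713. All 4 types overlapped, and the 2 highest T-type values belonged to cells 2 and 3, the cells with the smallest size factors. By the means T-type was higher than NR, with a log2 ratio of 1.58 (1.58 to 1.59), and higher than S-type, with 1.50 (1.50 to 1.51). T-type cell 2 held 72.4% of the T-type level, and without it the log2 ratios were -0.01 to NR and -0.09 to S-type. Without T-type cell 3 they were 1.53 and 1.45. With medians over cells in place of means they were -1.02 and -0.83, and with CPM of pooled reads -0.03 and -0.33. No direction between T-type and the other types can therefore be given for Malat1. S-type and M-type were within 2-fold of NR, with log2 ratios of 0.08 and -0.31.

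Across the 22 cells, Malat1 was low where S-phase transcripts were abundant. Its normalized count had a Spearman rho of -0.74 and a Pearson r of -0.74 on log2 values with the summed CPM of the 20 S-phase genes, and rho was -0.74 in CPM as well. Leaving out the 2 cells with the most extreme S-phase sums gave a rho of -0.68 over 20 cells, leaving out single cells -0.76 to -0.70, and the 17 responding cells alone -0.78. With the G2/M genes rho was -0.63, and with the mural and fibroblast genes -0.58. The same rho to S-phase genes was -0.44 for Neat1, -0.43 for Gas5 and -0.17 for Meg3. Rian at 0.10, Snhg1 at 0.13, Snhg11 at 0.37 and H19 at 0.47 were on the other side of 0, and Miat was at -0.24. The Malat1 relation to S-phase genes was the most negative of 81 computed between the 9 members and 9 gene lists, which ranged from -0.74 to 0.5. It was picked after seeing the data and is a description over cells that share library preparation and differ in depth. Leaving out cells of the same data gives it no independent support.

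Malat1 and Neat1 themselves were only loosely related, with a rho of 0.33 and an r of -0.02 over 22 cells. Leaving out S-type cell 1 and T-type cell 2, the cells with the lowest and highest Malat1, gave a rho of 0.49 and an r of 0.34 over 20 cells. T-type cell 2 combined the highest Malat1 value with no Neat1 read, and S-type cell 2 had 1 Neat1 read beside 12248 normalized counts of Malat1. The neighbouring genes were therefore not read in a fixed ratio in single cells.

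Genes whose products meet these RNAs in the nucleus were looked at as lists. Of 16 paraspeckle proteins, 6 were past 2-fold higher and 3 lower in T-type than in NR, with a median log2 ratio of 0.69 beside -0.07 for all genes. Among the 3 with most reads, Sfpq, which binds Neat1, had a log2 ratio of 2.10, Hnrnpm 2.52 and Tardbp 0.44. Among all genes, 28.4% were past 2-fold higher and 32.8% lower in this comparison. Of 17 nuclear speckle and SR proteins, 3 were higher and 4 lower in T-type than in NR (median -0.40), and Son, a core speckle protein, had a log2 ratio of -1.14. Against S-type, 2 paraspeckle genes were higher and 2 lower (median 0.31), and 2 speckle genes were higher and 3 lower (median -0.19). The shares of all genes against S-type were 25.7% higher and 32.5% lower.

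Meg3 and Rian lie on the plus strand 32.2 kilobases apart in the Dlk1-Dio3 locus, at chr12:109541001-109571726 and chr12:109603940-109661716. Their promoter windows, 250 bases before to 50 bases after the annotated start, differ in the letters they hold. They are shown because both RNAs were on in overlapping sets of cells. Whether Rian has a promoter of its own at this start was not tested. Promoter windows for 7 of the 9 members were found in RefSeq (GRCm38.p6), and those for Neat1 and H19 were not. In the windows, capitals mark the letters TGACGTCA (the full cyclic AMP response element), CCAAT and TATAAA on either strand. The Meg3 window is chr12:109540746-109541045 and the Rian window chr12:109603695-109603994, both on the plus strand.
Meg3: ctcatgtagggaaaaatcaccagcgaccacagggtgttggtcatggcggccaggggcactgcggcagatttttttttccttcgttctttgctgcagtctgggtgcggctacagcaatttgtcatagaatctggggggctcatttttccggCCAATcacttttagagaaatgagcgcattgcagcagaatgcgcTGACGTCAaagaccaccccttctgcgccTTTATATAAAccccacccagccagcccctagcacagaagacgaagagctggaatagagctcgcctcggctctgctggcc
Rian: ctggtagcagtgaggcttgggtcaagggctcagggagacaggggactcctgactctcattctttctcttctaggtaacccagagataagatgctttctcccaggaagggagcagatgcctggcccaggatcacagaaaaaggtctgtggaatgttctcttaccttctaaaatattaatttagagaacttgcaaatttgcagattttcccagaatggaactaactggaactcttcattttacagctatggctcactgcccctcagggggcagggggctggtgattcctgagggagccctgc
The Meg3 window held TGACGTCA at -57 to -50, CCAAT at -100 to -96, and TATAAA at -25 to -20 on the plus strand and, overlapping it, at -29 to -24 on the minus strand, counted from the start base. Of 32851 promoter windows of the same length, 1.79% held TGACGTCA, 37.4% CCAAT and 13.6% TATAAA. The Rian window held none of the 3 and no CG pair, where the Meg3 window had 13 and the median of all windows was 7.

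Meg3 was read in every cell, and M-type had the highest level with 2741 normalized counts, before S-type with 2221, T-type with 808 and NR with 666. NR cells had 1169, 500, 1071, 444 and 146, and M-type cells had 8701, 9.10, 3092, 966 and 936. S-type cells ran from 14.9 through a median of 2110 to 4171, and T-type cells from 2.59 through a median of 14.6 to 3431. Under 20 normalized counts were found in 6 of the 22 cells, of which 4 were T-type, 1 was S-type and 1 was M-type, and in none of the 5 NR cells. The other 16 cells had at least 146, so the cells fell into a set nearly without Meg3 and a set with it. Types overlapped in each comparison.

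S-type had more Meg3 than NR, with a log2 ratio of 1.74 (1.69 to 1.78) that stayed between 1.46 and 2.04 when single cells were left out. In 5 of 6 S-type cells Meg3 was above the highest NR cell, and S-type cell 5 with 14.9 was below the lowest. M-type was also higher than NR at 2.04 (2.00 to 2.08), but M-type cell 1 held 63.5% of that level and without it the log2 ratio was 0.91. T-type was lower than S-type at -1.46 (-1.50 to -1.42). T-type cell 6 held 70.8% of the T-type level, and the log2 ratio to S-type was -2.97 without it, -1.68 without T-type cell 3 and -7.18 with medians. Between T-type and NR the means gave a log2 ratio of 0.28 (0.22 to 0.33), whereas medians gave -5.10, leaving out T-type cell 6 gave -1.23 and leaving out T-type cell 3 gave 0.06. A mean of nearly equal size thus came from 2 T-type cells with 1380 and 3431 and 4 with less than 20 normalized counts.

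Rian, the host of a large cluster of C/D snoRNAs, had 2129 reads in 14 cells. T-type cell 6 alone had 1584 of these reads. In S-type all 6 cells had a read, from 1.57 through a median of 6.32 to 292 normalized counts. T-type cells had 1.41, 0, 0, 0, 0 and 1015, M-type cells had 3.75, 2.10, 13.6, 1.04 and 0, and NR cells had 0, 0, 0.719, 1.79 and 0. Only 4 cells reached 10 normalized counts, S-type cells 1 and 6, T-type cell 6 and M-type cell 3. S-type was higher than NR at a log2 ratio of 6.99 (5.62 to 8.87), which rested on 4 NR reads and was 5.17 without S-type cell 6. The T-type log2 ratio to NR was 8.40 (7.04 to 10.27) with T-type cell 6, which held 99.9% of the level, and -0.84 without it. Against S-type the T-type log2 ratio was 1.41 (1.26 to 1.56), and -7.82 without T-type cell 6. The M-type log2 ratio to NR was 3.03 (1.56 to 4.97).

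The 4 cells with at least 10 normalized counts of Rian had 2037 to 3431 of Meg3, and none of the 6 cells under 20 normalized counts of Meg3 had more than 2.10 of Rian. Over the 22 cells Meg3 and Rian had a rho of 0.66 and an r of 0.46, and without the 2 lowest Meg3 cells a rho of 0.60 and an r of 0.41 over 20 cells. Among the 17 responding cells rho was 0.72. It was the highest of the 4 pairs set side by side because of a shared location or class, which also held Meg3 and H19 at 0.35 and Gas5 and Snhg1 at -0.11, and the other 32 pairs ranged from -0.43 to 0.48. High Meg3 did not always come with Rian, since M-type cell 1 had the most Meg3 (8701) and 3.75 of Rian. Reads inside Rian were also assigned to the snoRNA gene AF357425, with 1159 reads in 7 cells, of which 629 were in M-type cell 1 and 516 in S-type. The snoRNA gene DQ267101 had 55 reads, all in T-type cell 6. How the counting divided reads between Rian and these rows inside its exons is not given in the sources used here.

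**Figure D3:**
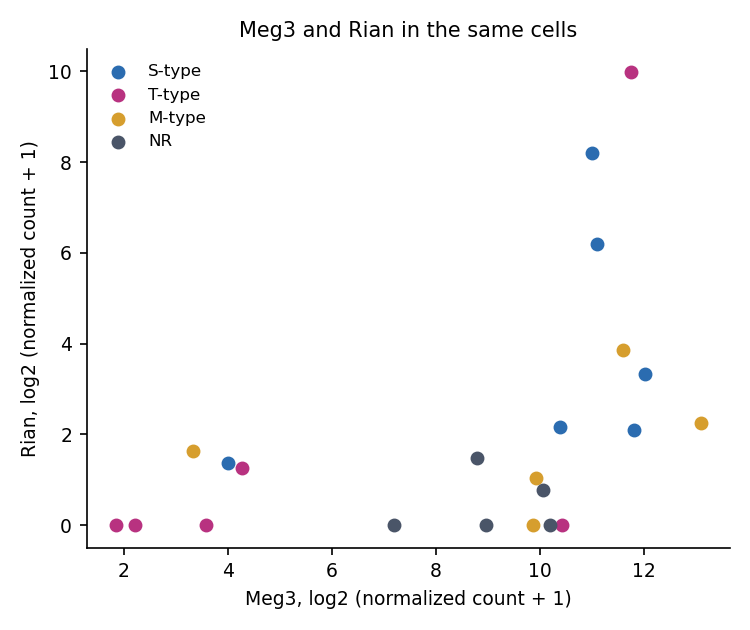
Rian against Meg3 in each of the 22 cells, both as log2 of the normalized count plus 1 and coloured by type. The cells with Rian at 72.8, 292 and 1015 normalized counts all lie at more than 2000 normalized counts of Meg3, and the 6 cells at the left have under 20.

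Of 9 other genes of the locus, 2 had reads in enough cells for a ratio. Dlk1, the paternally expressed Notch-like ligand of the locus, had 2055 reads in 20 cells and levels of 108 in T-type, 104 in NR, 102 in S-type and 15.6 in M-type. Its T-type log2 ratio was 0.05 to NR and 0.08 to S-type, and its M-type log2 ratio to NR was -2.74. Wdr25, at the edge of the locus, had a T-type log2 ratio of 4.23 to NR, with reads in 9 cells. Mirg, a further maternal RNA, had 81 reads in 4 cells, with 46 in T-type cell 4, which had 2 reads of Meg3. Mir770 and Mir1906-1, small RNAs inside Meg3, had no read. Among 39 other imprinted genes, 23 gave a ratio of T-type to NR, with 5 past 2-fold higher and 7 lower (median -0.30). The shares of all genes were 28.4% higher and 32.8% lower, so these counts are not read as a result about imprinted genes. Igf2r, a receptor that clears the growth factor Igf2, was the 1 of these imprinted genes with every T-type cell below every NR cell. Its log2 ratio was -4.21, and cells of the 2 types did not overlap in 1.01% of all genes. The abundant Gnas, a G protein alpha subunit, had 1.98, Cd81 -0.12 and Mest 1.76.

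H19 is at chr7:142575529-142578143 on the minus strand. It had 7 reads in all, 6 in S-type cell 1 (5.33 normalized counts) and 1 in S-type cell 2 (1.08), and none in the other 20 cells. No read over a type allows levels up to the floors given above, so the lack of a read sets an upper limit on H19 there. S-type cell 1 was the cell richest in G2/M genes (10582 CPM) and S-type cell 2 the cell richest in S-phase genes (7396 CPM). Igf2, the paternally expressed neighbour of H19, had 1 read in 1 M-type cell, and Mir675, which is cut from H19, had none. The relation to the cell-cycle lists rests on 2 cells and was not tested.

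Gas5 and Snhg1 belong to the host gene class. Gas5 is on the plus strand at chr1:161034422-161038539 and Snhg1 on the plus strand at chr19:8723475-8726443. Their promoter windows are shown because TOP transcripts start at a C followed by a run of C or T. Capitals mark TGACGTCA, TATAAA on either strand and, at the start base, a C followed by 4 bases that are C or T, which 2.51% of all windows had. The Gas5 window is the second of 2 RefSeq starts, chr1:161034916-161035215, and the Snhg1 window is chr19:8723237-8723536.
Gas5: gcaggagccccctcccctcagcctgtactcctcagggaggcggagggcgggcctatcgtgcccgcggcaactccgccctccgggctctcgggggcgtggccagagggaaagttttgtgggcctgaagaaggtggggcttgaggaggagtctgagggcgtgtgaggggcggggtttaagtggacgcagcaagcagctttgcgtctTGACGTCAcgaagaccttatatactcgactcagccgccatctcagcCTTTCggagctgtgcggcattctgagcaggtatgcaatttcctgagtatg
Snhg1: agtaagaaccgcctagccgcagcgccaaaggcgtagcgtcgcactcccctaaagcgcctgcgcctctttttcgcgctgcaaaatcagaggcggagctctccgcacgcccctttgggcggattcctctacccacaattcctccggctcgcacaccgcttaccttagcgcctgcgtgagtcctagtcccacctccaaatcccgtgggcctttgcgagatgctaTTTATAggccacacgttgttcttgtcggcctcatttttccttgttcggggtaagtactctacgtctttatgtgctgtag
The Gas5 start matched the TOP rule and its window held TGACGTCA at -46 to -39, as the Meg3 window did at -57 to -50. The Snhg1 start, ctcatttt, did not match the rule, and TATAAA lay at -29 to -24 on the minus strand of its window. Of the windows not printed, the Miat start matched the TOP rule, and those of Malat1, Snhg11, the first Gas5 start and the second Meg3 start held none of these letters.

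Gas5 had the smallest fold range over cells of the 9 RNAs. T-type had 7257 normalized counts (cells 4278 to 11957), NR 6568 (1997 to 9634), M-type 4365 (1038 to 8492) and S-type 4260 (2237 to 6567). The types overlapped throughout. No ratio of means reached 2-fold, with T-type to S-type at a log2 ratio of 0.77 (0.75 to 0.79), T-type to NR at 0.14 (0.12 to 0.16), S-type to NR at -0.62 (-0.64 to -0.60) and M-type to NR at -0.59 (-0.61 to -0.57). The direction between T-type and NR turned under 5 of the 7 other settings, from -0.46 to 0.24. The 2 highest T-type cells were cells 2 and 3, and T-type to S-type was 0.57 without cell 2 and 0.67 without cell 3. M-type to NR was past 2-fold at -1.07 with medians. The intervals do not cover the spread between cells, and values under 2-fold do not show that the types are alike.

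Snhg1 had 2092 normalized counts in M-type, 1944 in NR, 1537 in T-type and 1204 in S-type, and its cells spread more widely than those of Gas5. S-type cells ran from 80.8 to 2537, T-type from 10.9 to 4493, M-type from 518 to 4375 and NR from 825 to 4757. The lowest cell of all was T-type cell 3, which had the fewest reads. Its log2 ratios were 0.35 (0.31 to 0.39) for T-type to S-type, -0.34 (-0.37 to -0.30) for T-type to NR, -0.69 (-0.73 to -0.65) for S-type to NR and 0.11 (0.08 to 0.14) for M-type to NR. None was past 2-fold by means. The directions of T-type to S-type, T-type to NR and M-type to NR were not stable. S-type to NR kept its direction when single cells were left out and was 0.01 with medians. T-type to S-type became -0.35 without T-type cell 6 and -0.53 with medians, T-type to NR became 0.31 without NR cell 2, -0.08 without T-type cell 3, -1.04 without T-type cell 6 and -1.39 with log means, and S-type to NR became -0.04 without NR cell 2 and -1.05 without S-type cell 3. M-type to NR ran from -0.35 without M-type cell 3 to 0.75 without NR cell 2. Snhg1 CPM had a rho of 0.63 with the number of genes detected over the 22 cells, the highest of the 9 members, and its part was not tested. Gas5 and Snhg1 did not go up and down together over cells, with a rho of -0.11 and an r of -0.11 over 22 cells. In CPM the same rho was 0.16. The reads of Snord22, a snoRNA of the Snhg1 introns, summed to 1487, of which 690 were in T-type cell 6, the cell with the second most Snhg1 (4493). Snord47 of Gas5 had 340 reads in 11 cells.

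Translation factors of the TOP class gave another picture than the TOP host gene. Of 19 in the table, 11 were past 2-fold higher and 1 lower in T-type than in NR, beside 28.4% and 32.8% of all genes. Their median log2 ratio was 1.04, beside -0.07 for all genes. The 3 with most reads were Eef1a1 (0.64), Npm1 (1.57) and Eef1b2 (1.27). Of 80 ribosomal protein genes, 50 were higher and 0 lower, with a median of 1.26. The Gas5 log2 ratio of 0.14 lay under both medians, and the difference between Gas5 and these lists was not tested. Among 11 other snoRNA host genes, 3 were higher and 5 lower in T-type than in NR (median -0.94). Snhg6 had a log2 ratio of 0.99 and Snhg3 of 2.44, while 1500012F01Rik, also known as Zfas1, had levels of 107 in T-type and 856 in NR. Of 10 nonsense-mediated decay factors, which degrade spliced host RNAs, 3 were higher and 5 lower, with Upf3b at 3.91, Smg1 at -0.79 and Upf3a at -1.13. With so few genes, nothing is read from the host gene and decay factor counts. The ratios in all these lists are ratios of means, which single cells can carry.

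Miat lies on the minus strand at chr5:112213228-112229395, and 16 cells had a read of it, 5215 reads in all. S-type had 343 normalized counts, with cells from 0 through a median of 145 to 907. T-type had 21.7, with cells at 0, 127, 0, 1.82, 0.648 and 0.640. NR cells had 7.89, 852, 0.719, 77.8 and 45.4, and M-type cells had 0, 0, 96.1, 0 and 147. S-type held 4 cells of at least 144, and T-type had a single cell above 2. The T-type log2 ratio to S-type was -3.98 (-4.49 to -3.52), and -9.11 without T-type cell 2, which held 97.6% of the T-type level. To NR it was -3.18 (-3.69 to -2.72), and -0.60 without NR cell 2, which held 86.6% of the NR level. M-type was lower than NR at -2.01 (-2.16 to -1.87), but higher at 0.56 without NR cell 2. S-type to NR was 0.80 (0.72 to 0.89), and 3.38 without NR cell 2. Miat CPM had a rho of 0.57 with the number of genes detected over the 22 cells, whose part was not tested.

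Snhg11 lies on the plus strand at chr2:158375638-158386145 and is annotated as protein coding in the gene models used. It had 857 reads in 13 cells, of which 6 reached 10 normalized counts. NR cell 2 with 272 and S-type cell 5 were the highest, and these cells held 85.7% and 82.8% of their type's level. T-type had 12.4 and M-type 0.579 normalized counts. The T-type log2 ratio was -1.51 (-1.99 to -1.06) to S-type and -2.36 (-2.82 to -1.93) to NR, and without the single high cell it was 0.77 and 0.12. The M-type log2 ratio to NR was -6.77 (-8.23 to -5.64), and -4.29 without NR cell 2. The S-type log2 ratio to NR was -0.85 (-1.07 to -0.64), and 1.63 without NR cell 2. The few reads therefore describe single cells rather than types.

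The 8 members with a ratio were also counted against all genes. Between T-type and S-type, Malat1 and Rian were past 2-fold higher, beside 25.7% of all genes, and Neat1, Meg3, Snhg11 and Miat were past 2-fold lower, beside 32.5%. No member's cells kept apart, beside 0.783%. Between T-type and NR, Malat1 and Rian were higher, beside 28.4%, and Neat1, Snhg11 and Miat were lower, beside 32.8%. Between S-type and NR, Meg3 and Rian were higher, beside 25.1%, and none was lower, beside 22.5%, or apart, beside 0.412%. Between M-type and NR, Meg3 and Rian were higher, beside 19.8%, Neat1, Snhg11 and Miat lower, beside 28.1%, and none apart, beside 0.602%. Members called in 1 direction numbered 0 to 4 of 8, nothing about the group is read from so few, and the 3 comparisons with NR share its cells. The median log2 ratio of the members and of all genes was -0.55 and -0.09 for T-type to S-type, -0.10 and -0.07 for T-type to NR, -0.27 and 0.03 for S-type to NR and -0.45 and -0.20 for M-type to NR.

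**Figure D4:**
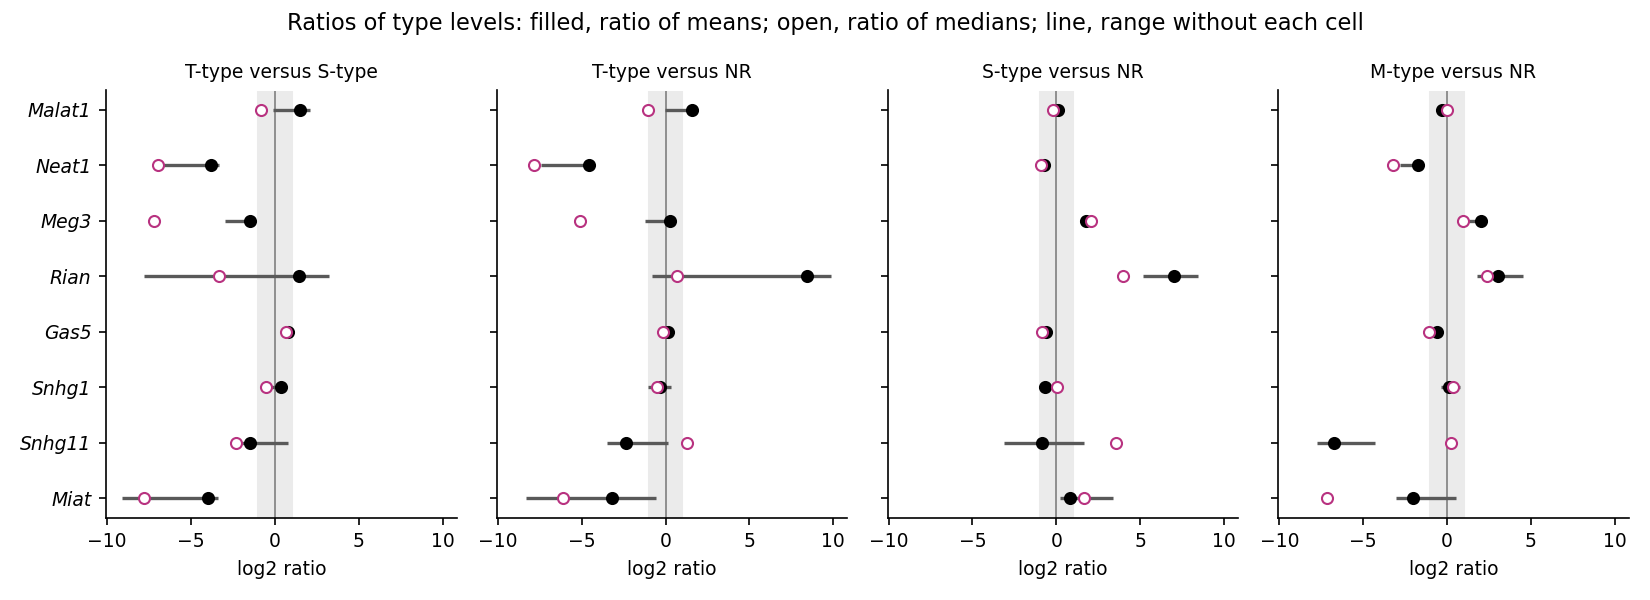
Log2 ratios of type levels for the 8 members with a ratio in the 4 comparisons, where filled points are ratios of means, open points ratios of medians (a median of 0 set to the floor of 3 reads over the type) and lines the range of the ratio of means when each cell is left out. Grey marks less than 2-fold, and Neat1 in T-type versus NR lies at -4.58 with a line from -7.40 to -4.32, whereas the line of Rian runs from -0.84 to 9.88.

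Under the 7 other settings and with each cell left out, the Neat1 ratios of T-type to S-type, T-type to NR and M-type to NR, the Meg3 ratios of T-type to S-type and S-type to NR, the Rian ratio of S-type to NR and the Miat ratio of T-type to S-type all stayed past 2-fold in the same direction. Mean CPM moved the median of all genes by -0.37 between T-type and S-type and by -0.40 between T-type and NR, so T-type ratios in CPM read against that shift.

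The genes most like a member over the 22 cells were ranked by rho among 9364 candidates. Neat1 was most like Zfp938 (0.85), Lama5, a laminin chain (0.82), and Cds1 (0.79). Malat1 was most like Sdha of mitochondrial complex II (0.78), the endoplasmic reticulum chaperone Hspa5 (0.78) and Nek9 (0.75). Meg3 was most like Plch1 (0.82), Pikfyve (0.75) and Zfp7 (0.74), and Gas5 like 2410131K14Rik (0.76), Lamp1 (0.66) and Fuca1 (0.63). Snhg1 was most like Wisp1 (0.78), Zfp566 (0.73) and Neu1 (0.72), and Miat like Cox10 (0.79), Nudt16l1 (0.76) and Robo2 (0.73). The highest of so many values over few cells are high for most genes, and by Pearson r none of the 3 genes of Neat1, Meg3 or Snhg1 was among the 3 highest.

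Of 9 other long noncoding RNAs with a ratio, 1 was past 2-fold higher and 5 were lower in T-type than in NR, beside 28.4% and 32.8% of all genes. Their median log2 ratio was -1.35 beside -0.07 for all genes, and nothing is read from so few. Mir22hg, the host of a microRNA, had 0.94, the imprinted antisense RNA Kcnq1ot1 -1.66 and 2900097C17Rik -0.31. Tug1, chosen after its value was seen, had -3.61, from levels of 90.5 in T-type and 1108 in NR.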

How the data were processed

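Each library held the RNA of 1 astrocyte, amplified in antisense RNA rounds without molecular identifiers and made into stranded libraries. The authors aligned trimmed reads to GRCm38 with STAR, and deposited raw counts of uniquely aligned exonic reads per gene symbol from VERSE (a modified HTSeq). The strand setting of the counting and the tool versions are not given in the sources used here, so reads of overlapping or antisense genes may be shared. Amplification can favour 3′ ends, which would affect levels per kilobase.

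Counts were divided by size factors from the 3670 genes read in all cells (NumPy 2.4.6, pandas 2.3.3, Python 3.11.15). Of the 12719 genes read in 5 or more cells, those with more than 3 reads in either type were given a ratio, with a floor of 3 reads for a level of 0 and a limit of 2-fold. Intervals are exact binomial (Clopper-Pearson) or Poisson at 95% (SciPy 1.17.1). For a ratio, the binomial interval of the raw read split was shifted on the log2 scale to lie around the ratio of mean levels. Positions and lengths came from GENCODE vM21 and promoters from RefSeq. The alternatives were mean CPM, TMM factors (edgeR 4.0.16, R 4.3.3), pooled CPM, medians, log means, thinning, a pseudocount of 1, and leaving out each cell. Steps were tested on simulated data, and figures used matplotlib 3.10.9. All 9 members are named, the 3 nearest genes of each member read in at least 15 cells (among genes read in at least 15 cells at a mean of at least 10), and of each list at most 3 genes, taken from those with most reads, plus any that a small count needs. The members and lists were chosen with earlier results of these data known.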

Additional observations from a re-analysis of the deposited data

Results flagged for a closer look

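In 4 of 33 groups of cells, 1 member in 1 type each, a single cell lay far from the others of its type by the cutoff of Dixon's test on log2 values. The cutoff served only to pick cells to look at. Its nominal rate of 1 group in 20 need not hold here, because cells are not replicates and some groups hold mostly 0 or 1 read. Nothing is therefore read from the number of groups picked. Meg3 was 14.9 normalized counts in S-type cell 5, while the next S-type cell had 1334. Rian was 1015 normalized counts in T-type cell 6, while the next T-type cell had 1.41. Snhg1 was 80.8 normalized counts in S-type cell 1, the cell richest in G2/M transcripts, while the next S-type cell had 812. Miat was 127 normalized counts in T-type cell 2, the cell with the fewest genes detected, while the next T-type cell had 1.82. The causes were not tested.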

How the results depend on the processing

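No paired analysis was possible because the results come from no test and cell numbers follow only the order of deposit. The counts of members past 2-fold stayed within 1.5 times their value under every setting, except that T-type versus NR (5) ran from 3 to 6 when single cells were left out, with 3 without NR cell 2, and S-type versus NR (2) was 4 with medians over cells and ran from 2 to 4 when single cells were left out, with 4 without S-type cell 3, S-type cell 5 or NR cell 2. Among ratios past 2-fold, directions turned for Malat1, Rian, Snhg11 and Miat. Malat1 in T-type was -0.33 against S-type and -0.03 against NR with CPM of pooled reads, -0.83 and -1.02 with medians, and ran from -0.09 to 2.11 and from -0.01 to 1.96 with single cells left out. Rian in T-type against S-type was -3.34 with medians and -2.02 with log means, and ran from -7.82 to 3.23, and against NR from -0.84 to 9.88. Snhg11 in T-type ran from -2.62 to 0.77 against S-type and from -3.47 to 0.12 against NR, where medians gave 1.28, and in M-type against NR medians gave 0.24. Miat in M-type against NR ran from -3.03 to 0.56. Where a cell was left out the shift is that cell's share, and otherwise the cause was not tested. Rian, H19 and Snhg11 rest on few reads, with a read in 14, 2 and 13 cells and at least 5 reads in 6, 1 and 7.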
